A study of Mus musculus with 15 samples.

Results

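Glucose transport, glycolysis and lactate genes, together with genes of the hypoxia-inducible factor (HIF) pathway and other known hypoxia-inducible genes, were followed through the first 48 h of culture of mouse dental mesenchymal cells (mDMCs). The genes were chosen by name for their known roles, 40 in all. Of these, 38 had a row among the 12089 transcripts of the expression table, 23 of the 24 glucose and lactate genes and 15 of the 16 HIF pathway and hypoxia genes. Pfkfb4 and Adm had no row. Ero1a was found under its older symbol, Ero1l. All 38 passed the filter on low values, which kept 12079 transcripts.

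mDMCs were obtained by trypsin from the dental mesenchyme of mandibular first molar germs of E14.5 ICR mouse embryos. RNA-seq covered freshly isolated mDMCs (0 h, 3 libraries) and mDMCs kept in FBS-supplemented medium until 12 h (2 libraries), 24 h, 36 h and 48 h (3 libraries each). A single library came from dental mesenchymal tissue. The labels name no transgene, deletion or drug for any group, all libraries came from the ICR strain, and the number of embryos behind a library is not given in the sources used here.

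Glycolysis splits glucose into pyruvate and yields ATP without oxygen. Lactate dehydrogenase turns pyruvate into lactate, and monocarboxylate transporters carry the lactate out of the cell. When oxygen is short, the alpha subunits of HIF escape the prolyl hydroxylases that mark them for destruction, pair with a stable partner and bind DNA at a short core, ACGTG or GCGTG. Many glycolytic enzymes and the genes for glucose entry, lactate export, collagen hydroxylation and mitophagy are known HIF targets. Because this switch acts on the HIF protein, the mRNA of Hif1a need not follow it.

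Expression is given as the score of the deposited table, a whole number that is not a read count. All libraries hold nearly the same set of scores, with a median of 721 and a largest score of 127101, so a score reflects the rank of a transcript within its library. The sequencing depth of the libraries is unknown. Differences are log2 differences of score + 1. Higher and lower are used for a limma adjusted p below 0.05 over all 12079 transcripts. Near the top of the table scores take few values, so Ldha, Pgk1, Eno1 and Pkm had the same score in all 3 libraries at 36 h and their spread is understated there. The 36 h replicates 1 and 2 lay closer together than any other replicate pair. Among transcripts with a mean log2(score + 1) of 8 to 10 the spread of their log2 difference was 0.0915. That of the other 12 replicate pairs was 0.153 to 0.38. At a mean of 10 to 11 it was 0.0574, against 0.121 to 0.289. Whether they are 1 library deposited a second time cannot be told from scores without a known depth, and they were averaged and counted as 1 sample, and n is 2 at 36 h and at 12 h. Nothing in the labels says that replicates came from separate cultures, so p-values measure only the spread between these samples.

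Freshly isolated mDMCs held other cells. The summed score of 9 red cell markers was 98239 to 151173 at 0 h and 135979 in the tissue, against 52 to 758 in culture. The 9 endothelial markers summed to 10462 to 12227 at 0 h and to 2029 to 4018 in culture. Of these 9, 8 were lower than at 0 h at every culture time, and Flt1, a VEGF receptor gene named here after its values were seen, was higher (log2 difference 1.94 at 36 h). The 5 macrophage markers summed to 944 to 1419 at 0 h and 337 to 760 in culture. The 5 epithelial markers summed to 1393 to 12742 at 0 h, with 0 h replicate 1 the highest, and to 81 to 2576 in culture. All 13 dental mesenchyme markers had a row, with sums of 135920 to 161085 at 0 h and 136249 to 234651 in culture. Marker by marker, 9 of the 13 were lower and 1 higher at 36 h than at 0 h, with a median log2 difference of -0.69. All differences from 0 h below move with this loss of red cell and endothelial RNA and with the lower dental mesenchyme markers, and the part of either was not tested. Fewer cells of a type and less RNA per cell cannot be told apart in these libraries.

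The largest shift of the 38 genes was at 36 h. Against 0 h, 24 were higher and 4 lower at 36 h, with a median log2 difference of 1.25. Over all transcripts 33.5% were higher and 31.4% lower, with a median of 0.02. At an unadjusted p below 0.05, 26 of the 38 were higher and 4 lower (background 35.0% and 33.0%). Of the 24, 21 were past 2-fold (background 15.4%). Among the 23 glucose and lactate genes, 16 were higher and 2 lower (median 1.21), and among the 15 HIF pathway and hypoxia genes 8 were higher and 2 lower (median 1.45). Egln3, Pfkp, Slc16a3, P4ha1 and Bnip3 stood highest, and Pfkm, Mxi1, Ldhb and Hif1a were the 4 lower genes.

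At the other times the median lay nearer to 0. At 12 h, 8 genes were higher and 13 lower (background 28.7% and 27.5%), with a median log2 difference of -0.04. At 24 h, 10 were higher and 9 lower (background 34.1% and 31.1%; median 0.19). At 48 h, 19 were higher and 8 lower (background 36.5% and 33.5%; median 0.73). The count at 12 h was 4 higher without 12 h replicate 1 (background 25.0%), and 5 without 12 h replicate 2 (background 24.2%) or without 0 h replicate 2 (background 26.3%). The other counts of this paragraph moved by less than 1.5 times when any 1 replicate was left out.

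**Figure D1:**
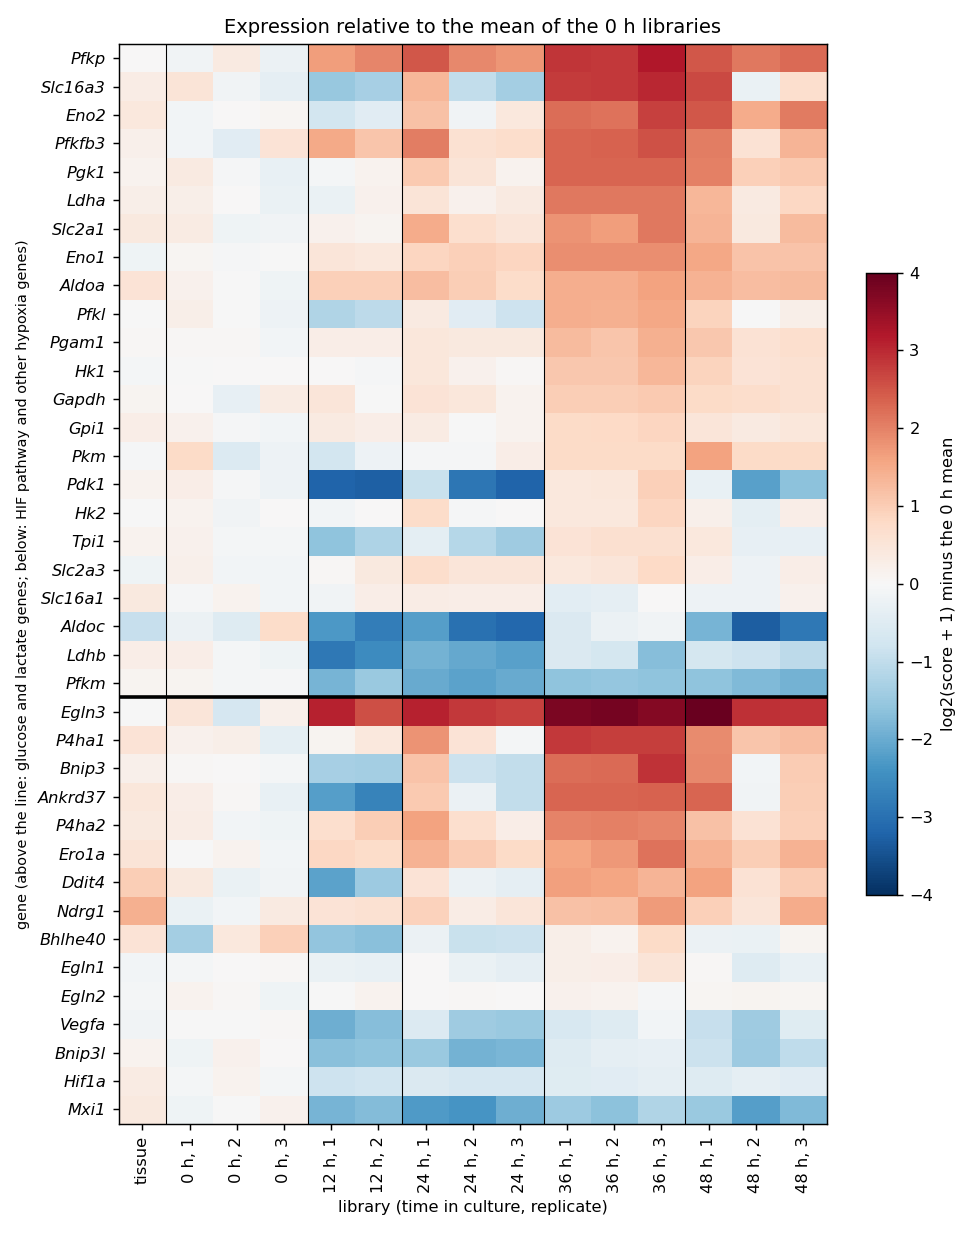
Heat map of the 38 genes (rows) in the tissue and 14 mDMC libraries (columns, by time and replicate), coloured by log2(score + 1) minus the 0 h mean, with the colour scale ending at -4 and 4. Red fills most rows at 36 h, where 24 genes were higher than at 0 h, and 24 h replicate 1 and 48 h replicate 1 are redder than the other libraries of their time.

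Between neighbouring times the step from 24 h to 36 h stood out. In that step 24 of the 38 genes were higher and 0 lower by limma at an adjusted p below 0.05, against a background of 5.15% higher and 3.96% lower. At an unadjusted p below 0.05 the counts were 33 higher and 1 lower (background 13.6% and 13.7%), and with a fold above 2 in addition 17 higher and 0 lower (background 2.31% and 1.63%). The median log2 difference was 0.97 for the 38 genes and -0.02 for all transcripts. The count held for 15 of the 23 glucose and lactate genes and 9 of the 15 others. It depended on single libraries, being 5 without 36 h replicate 3, 6 without 36 h replicates 1 and 2, 11 without 24 h replicate 2 and 13 without 24 h replicate 3. Leaving out either 36 h unit leaves a lone sample at 36 h, which is then assumed to vary like the other times. Hk1, Eno1, Ldha and Bnip3l were higher in all 13 leave-one-out fits, and the other 20 lost the call without 36 h replicate 3 and some of them without further libraries. The background of higher transcripts in the fits without these libraries was 0.662% to 2.09%. With the replicate number as a block and 36 h replicates 1 and 2 separate, 30 genes were higher and 1, Slc16a1, was lower (background 10.7% and 9.93%). Summed scores of markers of other cells also differed between these times. The epithelial markers summed to 928 to 1798 at 24 h and 81 to 562 at 36 h (median log2 difference -2.28, 0 of 5 called by limma, 2 lower by unadjusted p below 0.05). The red cell markers summed to 302 to 758 and 72 to 266 (median -1.42, 1 of 9 lower by limma, 4 lower by unadjusted p below 0.05). The endothelial markers summed to 2046 to 3702 and 3536 to 4018, although 6 of the 9 had a negative difference (median -0.33). By limma 1 was lower and 0 higher, and by unadjusted p below 0.05 2 were lower and 0 higher. The macrophage markers summed to 408 to 551 and 386 to 462 (median 0.12, 0 of 5 called by limma, 1 lower by unadjusted p below 0.05). The dental mesenchyme markers summed to 151820 to 183186 and 142173 to 205781. Of these 13, 10 had a negative difference (median -0.28). By limma 1 was lower, Dlx1 (-1.19), and 0 higher. By unadjusted p below 0.05, 4 were lower and 0 higher. The part of these markers in the step was not tested.

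From 12 h to 24 h only Ddit4 was higher and none was lower (background 3.69% and 2.78%), and at an unadjusted p below 0.05 there were 8 higher (background 11.9%) and 1 lower (background 1334 of 12079 transcripts). In this step 4 of 9 endothelial (median -1.07), 1 of 5 macrophage (-0.25) and 2 of 13 dental mesenchyme markers (-0.27) were lower by limma. Of the red cell and epithelial markers 0 were called, and 0 of any marker list were higher. Their part was not tested. The Ddit4 call was lost without 12 h replicate 1 (adjusted p = 0.15). From 36 h to 48 h none of the 38 genes passed in either direction, and none of all 12079 transcripts did (background 0%). At an unadjusted p below 0.05, 22 of the 38 were lower and 0 higher at 48 h (background 5.02% and 4.15%), and with a fold above 2 in addition 9 were lower and 0 higher (background 0.919% and 0.364%). The 5 epithelial markers all had a positive difference in that comparison (median 1.44, 0 called by limma, 2 higher by unadjusted p below 0.05), and their part was not tested. Differences of the listed genes were negative for 34 of the 38, with a median of -0.60. Without 48 h replicate 1, 3 genes were lower at an adjusted p below 0.05 (background 0.0993%).

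**Figure D2:**
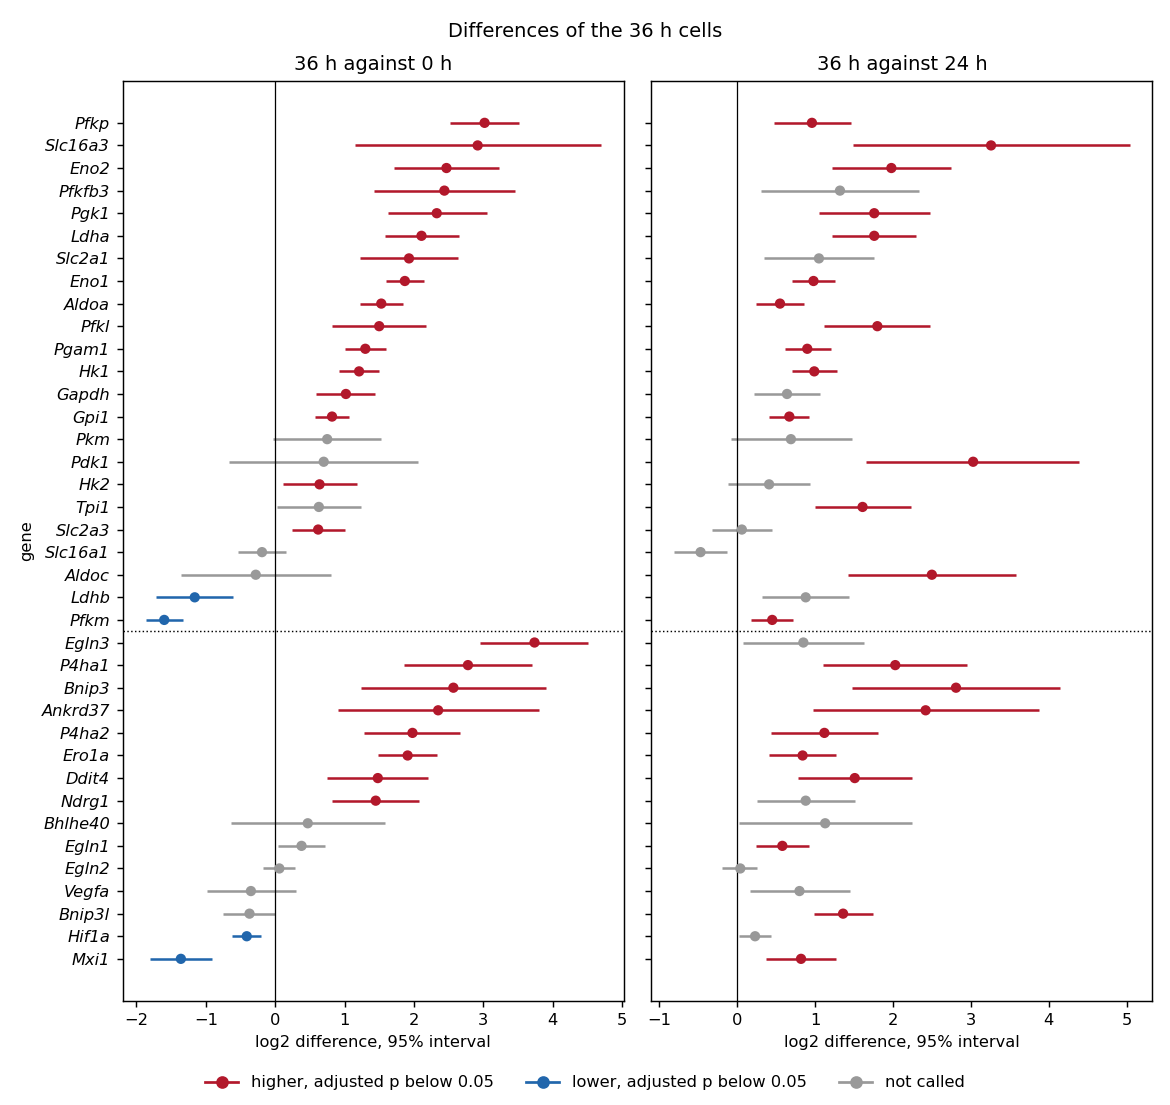
Log2 differences with 95% intervals (limma) of the 38 genes, 36 h against 0 h on the left and 36 h against 24 h on the right, with the dotted line between glucose and lactate genes (above) and HIF pathway and hypoxia genes (below). Red marks a higher gene, blue a lower gene and grey a gene that passed neither way. On the left 24 are red and 4 blue, and on the right 24 are red and none is blue.

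Glucose enters the cell through the facilitative transporters encoded by Slc2a1 (GLUT1) and Slc2a3 (GLUT3). Slc2a1 scores were 2123, 1492 and 1538 at 0 h and 1911 and 1840 at 12 h. They were 4753, 2703 and 2352 at 24 h, with 5832, 5423 and 7398 at 36 h and 4340, 2204 and 4084 at 48 h. All 36 h libraries lay above all other mDMC libraries, and 24 h replicate 1 stood well above its 2 partners. At 36 h the mean was 6513 ± 1252 (SD, n = 2) against 1718 ± 352 (SD, n = 3) at 0 h, 3.8-fold higher on the log2(score + 1) scale, a log2 difference of 1.93 (SE 0.32, adjusted p = 0.00025). The step from 24 h, 1.05 (SE 0.32, adjusted p = 0.064), did not pass. Slc2a3 scores were 1203, 968 and 950 at 0 h and 1075 and 1354 at 12 h. They were 1694, 1447 and 1447 at 24 h, with 1383, 1440 and 1803 at 36 h and 1254, 901 and 1237 at 48 h. Its ranges at 24 h and 36 h overlapped, both above 0 h, and the log2 difference at 36 h was 0.62 (SE 0.18, adjusted p = 0.0082). That call was lost without 36 h replicate 3, when the adjusted p was 0.11.

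Hexokinase traps glucose in the cell as a sugar phosphate. Hk1, the form found in most cells, scored 1404, 1441 and 1448 at 0 h, against 1950, 1614 and 1466 at 24 h and 3045, 3030 and 3591 at 36 h. The 36 h scores lay above those of every other mDMC library, with a log2 difference from 0 h of 1.21 (SE 0.13, adjusted p = 9e-06) and from 24 h of 0.99 (SE 0.13, adjusted p = 0.0031). Hk2, the hexokinase known for its induction in growing and hypoxic cells, scored 2089, 1733 and 1921 at 0 h, against 3158, 1858 and 1936 at 24 h and 2548, 2548 and 3497 at 36 h. Here 24 h replicate 1 exceeded 36 h replicates 1 and 2, and the log2 difference at 36 h was 0.64 (SE 0.24, adjusted p = 0.035). The Hk2 call was lost without 0 h replicate 2, without 0 h replicate 3 and without 36 h replicate 3. Gpi1, the isomerase of the next step, scored 4476, 3811 and 3643 at 0 h and 6704, 6818 and 7242 at 36 h without overlap, a log2 difference of 0.82 (SE 0.12, adjusted p = 6.7e-05).

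Phosphofructokinase commits glucose to glycolysis, and its liver (Pfkl), muscle (Pfkm) and platelet (Pfkp) subunits took different courses. Pfkp scores were 306, 430 and 286 at 0 h and 1074 and 1309 at 12 h. They were 1868, 1280 and 1132 at 24 h, with 2446, 2372 and 3070 at 36 h and 1873, 1453 and 1603 at 48 h. Every cultured library exceeded every 0 h library, and the log2 difference at 36 h was 3.02 (SE 0.23, adjusted p = 4.7e-07), 8.09-fold. Pfkm scores were 2177, 1947 and 1991 at 0 h and 564 and 732 at 12 h. They were 507, 462 and 501 at 24 h, with 670, 691 and 661 at 36 h and 662, 597 and 545 at 48 h. For this subunit every cultured library lay below every 0 h library, with a log2 difference at 36 h of -1.60 (SE 0.12, adjusted p = 5.8e-07). Pfkl scores were 3714, 3147 and 2777 at 0 h and 1373 and 1529 at 12 h. They were 4133, 2317 and 1813 at 24 h, with 8724, 8508 and 9399 at 36 h and 5892, 3165 and 3730 at 48 h. Pfkl was thus lower than at 0 h after 12 h, by a log2 difference of -1.14 (SE 0.31, adjusted p = 0.0083), and higher at 36 h, by 1.5 (SE 0.31, adjusted p = 0.0012), and the 12 h call was lost without 12 h replicate 1 (adjusted p = 0.054). Pfkm also was higher at 36 h than at 24 h (0.45, adjusted p = 0.043), a step in which Pfkl changed by 1.80 (SE 0.31, adjusted p = 0.0079) and Pfkp by 0.96 (SE 0.23, adjusted p = 0.026). The Pfkp row carries a transcript annotated as a retained intron. Whether a score is that of the listed transcript or of the whole gene is not given in the sources used here.

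The promoters of these 3 subunits are shown because the subunits differed from 0 h in different directions. Each is the RefSeq window (GRCm38.p6) of 300 bases, 250 before to 50 after the annotated gene start, printed 5′ to 3′ on the strand of the gene: Pfkl at chr10:78009758-78010057, minus strand, Pfkm at chr15:98092339-98092638, plus strand and Pfkp at chr13:6648722-6649021, minus strand. Where a gene has more than 1 RefSeq window, the window nearest the start of the listed transcript is shown. Pfkm has 4 windows, and Pfkl and Pfkp have 1 each. Capitals mark matches on either strand to the HIF core letters ACGTG or GCGTG, joined where they overlap. ACGTG is also part of the palindrome CACGTG, to which E-box factors such as Myc are known to bind.
Pfkl: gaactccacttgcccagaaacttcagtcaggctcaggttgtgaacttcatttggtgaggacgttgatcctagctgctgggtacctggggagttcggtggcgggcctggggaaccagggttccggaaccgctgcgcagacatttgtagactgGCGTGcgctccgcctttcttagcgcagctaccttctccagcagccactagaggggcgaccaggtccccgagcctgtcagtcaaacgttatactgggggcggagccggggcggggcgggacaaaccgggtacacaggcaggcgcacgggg
Pfkm: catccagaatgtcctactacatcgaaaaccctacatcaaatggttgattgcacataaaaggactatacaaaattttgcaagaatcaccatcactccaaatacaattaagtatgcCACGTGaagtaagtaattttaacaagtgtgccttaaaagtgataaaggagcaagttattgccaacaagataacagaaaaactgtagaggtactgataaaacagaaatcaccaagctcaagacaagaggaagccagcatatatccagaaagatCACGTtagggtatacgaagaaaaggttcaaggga
Pfkp: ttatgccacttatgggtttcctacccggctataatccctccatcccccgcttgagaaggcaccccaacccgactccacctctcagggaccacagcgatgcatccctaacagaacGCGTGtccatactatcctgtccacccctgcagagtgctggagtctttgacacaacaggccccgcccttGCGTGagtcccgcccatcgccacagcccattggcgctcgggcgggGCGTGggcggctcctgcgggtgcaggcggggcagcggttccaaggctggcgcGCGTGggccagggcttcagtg
The windows of Pfkp, Pfkl and Pfkm hold 4, 1 and 2 capital stretches. Among the windows shown, the letters ACGTG occur only in that of Pfkm, the subunit that was lower in culture. The other windows of Pfkm are not described here.

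Pfkfb3 makes a regulatory sugar phosphate that is the strongest known activator of phosphofructokinase. Pfkfb3 scores were 370, 292 and 576 at 0 h and 1135 and 862 at 12 h. They were 1630, 606 and 646 at 24 h, with 2003, 2028 and 2306 at 36 h and 1642, 589 and 1027 at 48 h. At 24 h and at 48 h replicate 1 was far above the other two libraries, while at 36 h the libraries lay close together. The log2 difference at 36 h from 0 h was 2.44 (SE 0.47, adjusted p = 0.00066), and that from 24 h, 1.32 (SE 0.47, adjusted p = 0.095), did not pass. Aldolase splits the sugar into triose phosphates. Aldoa scored 5602, 4957 and 4426 at 0 h and 13651, 13651 and 15081 at 36 h and was higher from 12 h on, by 1.53 (SE 0.14, adjusted p = 2.1e-06) at 36 h. Aldoc, the brain form, was at a low level throughout. Aldoc scores were 74, 61 and 145 at 0 h and 17 and 12 at 12 h. They were 18, 10 and 9 at 24 h, with 58, 73 and 78 at 36 h and 23, 8 and 11 at 48 h. Its 36 h level was not distinguishable from 0 h (log2 difference -0.28, SE 0.49, adjusted p = 0.64) but was above 24 h (log2 difference 2.50, SE 0.49, adjusted p = 0.013).

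The enzymes of the later stage of glycolysis, from triose phosphate to pyruvate, include those that reached the top of the table, where ties are common. Tpi1, triose phosphate isomerase, scored 13284, 11063 and 11063 at 0 h and 3884 and 4995 at 12 h, against 8938, 5332 and 4427 at 24 h and 17357, 18515 and 18515 at 36 h. It was lower than 0 h at 12 h (log2 difference -1.42, SE 0.28, adjusted p = 0.0011) and above 24 h at 36 h (log2 difference 1.61, SE 0.28, adjusted p = 0.008). Pgk1 scores were 12923, 9574 and 8066 at 0 h and 9384 and 11034 at 12 h. They were 20818, 14325 and 11034 at 24 h, with 50368, 50368 and 50368 at 36 h and 40603, 19215 and 20818 at 48 h. Pgk1, phosphoglycerate kinase, makes the first ATP of this stage. It was 5.04-fold higher at 36 h than at 0 h, a log2 difference of 2.33 (SE 0.33, adjusted p = 6.3e-05), and 48 h replicate 1 was nearer to the 36 h libraries than to its partners. Pgam1, phosphoglycerate mutase, rose from 7501, 7501 and 6695 at 0 h to 17371, 15608 and 19244 at 36 h, a log2 difference of 1.30 (SE 0.14, adjusted p = 5.9e-06).

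Enolase forms phosphoenolpyruvate. Eno1 scores were 8305, 7604 and 7732 at 0 h and 11095 and 10466 at 12 h. They were 14408, 15128 and 14408 at 24 h, with 28882, 28882 and 28882 at 36 h and 23247, 17403 and 17403 at 48 h. The 3 scores at 36 h were equal and above those of every other mDMC library. The log2 difference was 1.87 (SE 0.13, adjusted p = 1.9e-07) from 0 h and 0.98 (SE 0.13, adjusted p = 0.0026) from 24 h. Eno2, the neuronal form, scored 174, 187 and 198 at 0 h, against 870, 834 and 1252 at 36 h and 1052, 519 and 787 at 48 h, a log2 difference of 2.47 (SE 0.35, adjusted p = 6.7e-05) at 36 h. Gapdh, the dehydrogenase often used as a reference gene, scored 8933, 7049 and 11057 at 0 h and 17348, 17348 and 18505 at 36 h, a log2 difference of 1.02 (SE 0.19, adjusted p = 0.00068). Gapdh has many near-identical pseudogenes, and both Gapdh and Eno2 are listed by a retained-intron transcript, so their scores are less certain. Pkm, pyruvate kinase, scored 70645, 28813 and 36394 at 0 h, against 70645, 70645 and 70645 at 36 h and 127101, 70645 and 70645 at 48 h. Its 36 h difference, 0.75 (SE 0.36, adjusted p = 0.083), did not pass, and its highest mean was at 48 h (log2 difference 1.03 against 0 h, SE 0.32, adjusted p = 0.012), where replicate 1 held the largest score of the table. The 48 h call was lost without 48 h replicate 1 and without 0 h replicate 2, with an adjusted p of at most 0.059.

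Against 0 h, lactate dehydrogenase subunits A and B differed in opposite directions at 36 h, although both were higher at 36 h than at 12 h. Ldha scores were 19261, 16542 and 13679 at 0 h and 13679 and 18563 at 12 h. They were 23247, 18563 and 20924 at 24 h, with 70714, 70714 and 70714 at 36 h and 40684, 20924 and 28882 at 48 h. The 36 h scores were equal, and the next highest mDMC library was 48 h replicate 1. The log2 difference was 2.11 (SE 0.25, adjusted p = 1.5e-05) from 0 h, 4.33-fold, and 1.76 (SE 0.25, adjusted p = 0.0035) from 24 h. Ldhb scores were 2202, 1734 and 1617 at 0 h and 254 and 318 at 12 h. They were 493, 443 and 405 at 24 h, with 1241, 1116 and 568 at 36 h and 1133, 1033 and 886 at 48 h. Every cultured library lay below every 0 h library, and the log2 difference was -2.69 (SE 0.25, adjusted p = 4.5e-06) at 12 h and -1.16 (SE 0.25, adjusted p = 0.0016) at 36 h. Within culture the subunit B gene was higher at 36 h than at 12 h, by 1.52 (SE 0.28, adjusted p = 0.0023), as was Ldha, by 2.15 (SE 0.27, adjusted p = 0.00026), and the Ldhb step from 24 h, 0.88 (SE 0.25, adjusted p = 0.052), did not pass. The 36 h libraries of Ldhb were spread widely, with replicate 3 nearest to the 24 h scores, and the 36 h difference ranged from -1.69 to -0.64 when single replicates were left out.

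Promoter windows of the lactate dehydrogenase pair are shown for the same reason, with capitals as above. The Ldha window, chr7:46845554-46845853, plus strand, begins at another start than the listed transcript, whose start lies 4329 bases away. It is the nearer of 2 RefSeq windows of Ldha, and the other is not described here. The Ldhb window is chr6:142507908-142508207, minus strand.
Ldha: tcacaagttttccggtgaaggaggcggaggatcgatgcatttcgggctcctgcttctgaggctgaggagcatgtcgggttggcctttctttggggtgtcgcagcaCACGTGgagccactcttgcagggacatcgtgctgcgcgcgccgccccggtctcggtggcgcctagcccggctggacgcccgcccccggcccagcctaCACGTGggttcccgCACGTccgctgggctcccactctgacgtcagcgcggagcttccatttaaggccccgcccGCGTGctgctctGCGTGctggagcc
Ldhb: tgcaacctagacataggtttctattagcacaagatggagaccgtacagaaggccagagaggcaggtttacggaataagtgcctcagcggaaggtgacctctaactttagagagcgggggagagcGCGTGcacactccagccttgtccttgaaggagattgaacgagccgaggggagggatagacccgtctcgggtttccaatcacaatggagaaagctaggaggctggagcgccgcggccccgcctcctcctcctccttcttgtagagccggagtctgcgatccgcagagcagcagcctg
The window of Ldha holds 5 capital stretches, 2 of them the palindrome CACGTG, and that of Ldhb holds 1 GCGTG match and no ACGTG.

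Pdk1 phosphorylates pyruvate dehydrogenase and keeps pyruvate from the citric acid cycle. Pdk1 scores were 1634, 1306 and 1186 at 0 h and 147 and 141 at 12 h. They were 742, 181 and 148 at 24 h, with 1832, 1879 and 2648 at 36 h and 1120, 303 and 435 at 48 h. Both 12 h scores were far below the 0 h range, a log2 difference of -3.23 (SE 0.62, adjusted p = 0.00093). From 24 h to 36 h it was higher by 3.03 (SE 0.62, adjusted p = 0.016), 8.15-fold (a log2 difference of 3.75 without 24 h replicate 1), and the 36 h libraries all exceeded the 0 h libraries, a difference of 0.70 (SE 0.62, adjusted p = 0.34) that did not pass. Of the lactate transporters, Slc16a3 (MCT4) is the export form of glycolytic cells and a known HIF target, and Slc16a1 (MCT1) works in both directions. Slc16a3 scores were 988, 626 and 538 at 0 h and 241 and 278 at 12 h. They were 1743, 346 and 272 at 24 h, with 4856, 4923 and 5665 at 36 h and 4373, 582 and 1107 at 48 h. The libraries at 36 h lay close together and above all others, but at 24 h and 48 h replicate 1 exceeded its partners by a log2 ratio of 2.50 and 2.44, the widest of the 38 genes. At 36 h Slc16a3 was higher than at 0 h by 2.92 (SE 0.81, adjusted p = 0.0075) and than at 24 h by 3.26 (SE 0.81, adjusted p = 0.032), the latter 4.10 without 24 h replicate 1. Slc16a1 scored 2077, 2356 and 1986 at 0 h and 1608, 1671 and 2147 at 36 h, a log2 difference of -0.19 with a 95% interval of -0.53 to 0.16.

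**Figure D3:**
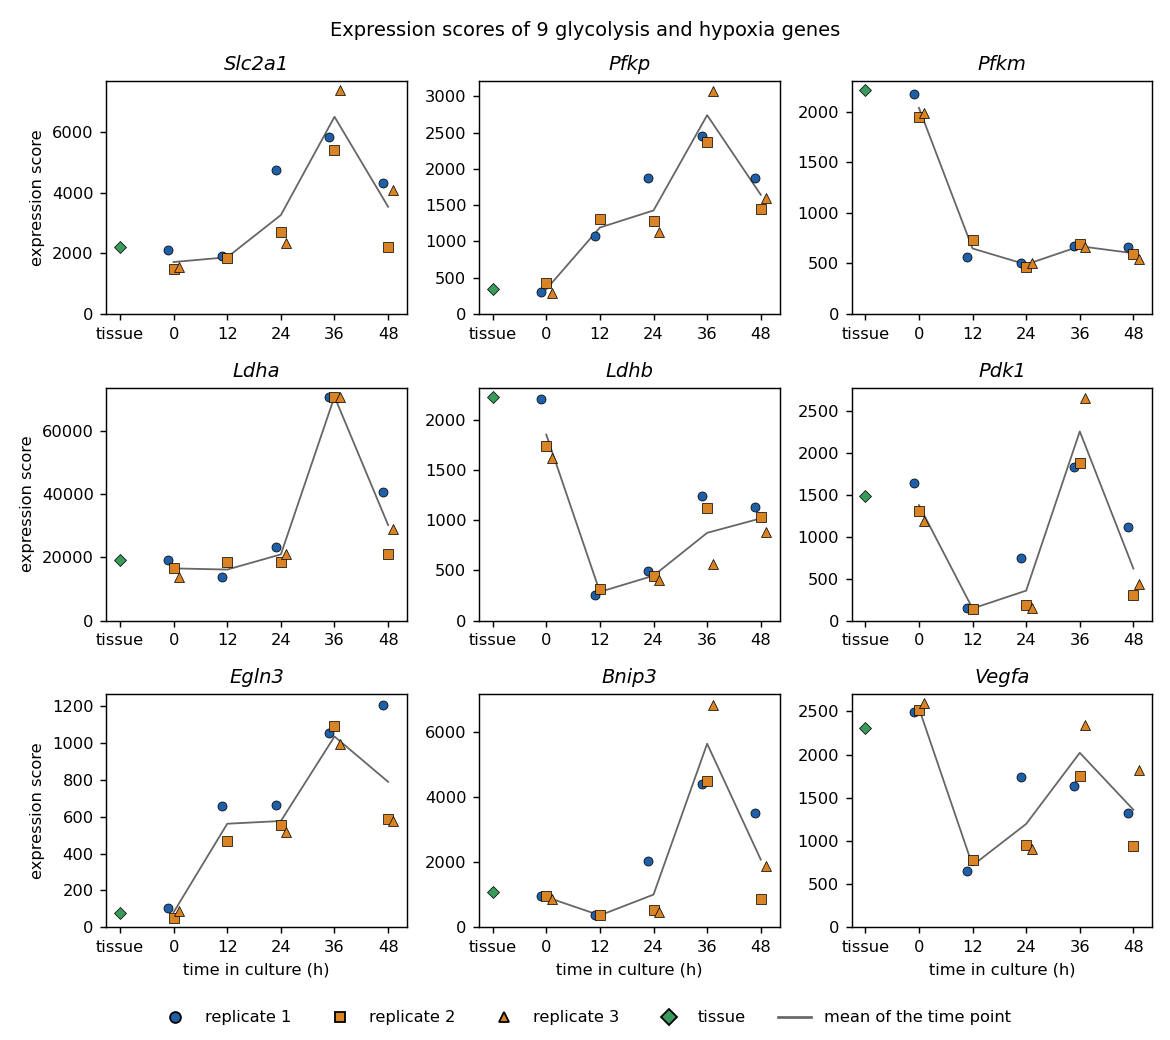
Expression score (vertical axis, linear, starting at 0) of 9 of the genes in the tissue and at 0, 12, 24, 36 and 48 h, 1 point per library and a line through the mean of each time, with 36 h replicates 1 and 2 averaged first. Slc2a1, Pfkp, Ldha and Bnip3 peak at 36 h, Pfkm stays low in culture, and Pdk1, Ldhb and Vegfa have their lowest mean at 12 h.

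Among the genes of oxygen sensing, Hif1a encodes the regulated HIF subunit, and Egln1, Egln2 and Egln3 encode the prolyl hydroxylases PHD2, PHD1 and PHD3. Hif1a scores were 7507, 8752 and 7424 at 0 h and 4476 and 4618 at 12 h. They were 5224, 4969 and 4969 at 24 h, with 5678, 5786 and 6101 at 36 h and 5487, 6101 and 5786 at 48 h. All cultured libraries lay below all 0 h libraries, with a log2 difference of -0.79 (SE 0.09, adjusted p = 2.4e-05) at 12 h and -0.41 (SE 0.09, adjusted p = 0.002) at 36 h. Egln3 scores were 107, 48 and 88 at 0 h and 659 and 466 at 12 h. They were 662, 553 and 517 at 24 h, with 1058, 1095 and 997 at 36 h and 1209, 586 and 576 at 48 h. Egln3, itself a known HIF target, had the largest rise of the 38 genes, 13.3-fold at 36 h with a log2 difference of 3.74 (SE 0.35, adjusted p = 2.9e-06). It was already higher at 12 h, by 2.84 (SE 0.35, adjusted p = 4e-05), and 48 h replicate 1 stood well above its partners. Egln1 scored 2140, 1764 and 1652 at 24 h and 2507, 2527 and 2996 at 36 h, a log2 difference of 0.58 (SE 0.16, adjusted p = 0.041), and did not pass against 0 h. Egln2 stayed between 1608 and 2039 in all mDMC libraries, and its 36 h difference of 0.06 had a 95% interval of -0.17 to 0.28.

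Vegfa and the mitophagy genes are textbook HIF targets. Vegfa scores were 2490, 2519 and 2602 at 0 h and 648 and 783 at 12 h. They were 1737, 947 and 904 at 24 h, with 1639, 1756 and 2343 at 36 h and 1324, 938 and 1819 at 48 h. Vegfa, the vascular growth factor, was lower than at 0 h at 12 h by a log2 difference of -1.83 (SE 0.30, adjusted p = 0.00027), and no 36 h library reached the 0 h range, although the 36 h difference, -0.35 (SE 0.30, adjusted p = 0.32), did not pass. Bnip3 scores were 962, 945 and 876 at 0 h and 367 and 361 at 12 h. They were 2027, 515 and 465 at 24 h, with 4396, 4495 and 6847 at 36 h and 3512, 854 and 1870 at 48 h. Bnip3, a mitophagy receptor, was thus 5.95-fold higher at 36 h than at 0 h, a log2 difference of 2.57 (SE 0.61, adjusted p = 0.0028), and 7.01-fold higher than at 24 h, a log2 difference of 2.81 that was 3.49 without 24 h replicate 1. Replicate 1 stood above its partners at 24 h and 48 h by a log2 ratio of 2.05 and 1.47. Bnip3l (NIX), the related receptor that also clears mitochondria from maturing red cells, was highest at 0 h with 3093, 3921 and 3502 and was lower at 24 h with 1255, 935 and 978. Its 36 h scores of 2448, 2708 and 2809 were above 24 h by 1.36 (SE 0.17, adjusted p = 0.0026).

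The next genes encode a pair of collagen prolyl hydroxylase subunits, an oxidoreductase and stress proteins. P4ha1 scores were 3042, 3172 and 2094 at 0 h and 2960 and 3614 at 12 h. They were 9415, 4001 and 2578 at 24 h, with 19251, 18544 and 18544 at 36 h and 10099, 5903 and 6421 at 48 h. The 36 h scores of P4ha1 nearly coincided and were higher than at 0 h by 2.78 (SE 0.42, adjusted p = 0.00012), while at 24 h replicate 1 was far above its partners. P4ha2 scored 1238, 931 and 902 at 0 h and 4029, 4092 and 3914 at 36 h, a log2 difference of 1.98 (SE 0.32, adjusted p = 0.00018). Ero1a, which forms disulphide bonds in the endoplasmic reticulum, scored 536, 598 and 503 at 0 h and 1626, 1811 and 2438 at 36 h, a log2 difference of 1.91 (SE 0.20, adjusted p = 5.6e-06). Ndrg1, a stress-induced gene, scored 388, 429 and 591 and 1041, 1056 and 1520, a log2 difference of 1.45 (SE 0.29, adjusted p = 0.00084). Ddit4 (REDD1) holds back mTOR complex 1 under stress. Ddit4 scores were 931, 595 and 650 at 0 h and 161 and 257 at 12 h. They were 1033, 600 and 551 at 24 h, with 2202, 2114 and 1835 at 36 h and 2159, 1073 and 1444 at 48 h. It was lower at 12 h (log2 difference -1.80, SE 0.33, adjusted p = 0.00071), higher at 24 h than at 12 h (log2 difference 1.78, SE 0.33, adjusted p = 0.012) and higher at 36 h than at 0 h (log2 difference 1.48, SE 0.33, adjusted p = 0.0021).

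Ankrd37, a small ankyrin repeat protein and known HIF target, had low scores throughout. Ankrd37 scores were 37, 32 and 25 at 0 h and 6 and 4 at 12 h. They were 65, 26 and 15 at 24 h, with 160, 161 and 164 at 36 h and 160, 28 and 62 at 48 h. The 3 libraries at 36 h and 48 h replicate 1 were at one level, and the other 48 h libraries far below it. Its log2 difference was -2.43 (SE 0.66, adjusted p = 0.0083) at 12 h and 2.35 (SE 0.66, adjusted p = 0.0082) at 36 h, the former lost without 12 h replicate 2 (adjusted p = 0.057) and nearer to 0 with a pseudocount of 10 (-1.46, adjusted p = 0.038). The transcriptional repressors of the list differed from each other. Mxi1, a Myc antagonist, scored 762, 849 and 968 at 0 h and 315, 275 and 374 at 36 h, lower by a log2 difference of -1.36 (SE 0.21, adjusted p = 0.00012) with no overlap between 0 h and culture. Bhlhe40, a clock repressor, had widely spread 0 h scores of 326, 1142 and 1630, against 280 and 266 at 12 h and 988, 924 and 1442 at 36 h. Bhlhe40 was lower at 12 h (log2 difference -1.63, SE 0.51, adjusted p = 0.017), a call lost without 0 h replicate 2 or 3 or either 12 h replicate and a difference of -2.32 without 0 h replicate 1, and its 36 h difference of 0.47 (SE 0.51, adjusted p = 0.43) did not pass.

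The windows of Egln3 (chr12:54203825-54204124, minus strand) and Mxi1 (chr19:53310256-53310555, plus strand) are given as those of the hypoxia genes with the largest rise and the largest fall at 36 h.
Egln3: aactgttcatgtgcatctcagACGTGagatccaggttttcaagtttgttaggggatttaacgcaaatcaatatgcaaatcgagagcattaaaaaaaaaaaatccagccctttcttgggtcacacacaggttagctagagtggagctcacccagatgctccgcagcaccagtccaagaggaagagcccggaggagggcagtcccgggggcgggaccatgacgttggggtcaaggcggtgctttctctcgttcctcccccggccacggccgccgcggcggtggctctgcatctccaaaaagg
Mxi1: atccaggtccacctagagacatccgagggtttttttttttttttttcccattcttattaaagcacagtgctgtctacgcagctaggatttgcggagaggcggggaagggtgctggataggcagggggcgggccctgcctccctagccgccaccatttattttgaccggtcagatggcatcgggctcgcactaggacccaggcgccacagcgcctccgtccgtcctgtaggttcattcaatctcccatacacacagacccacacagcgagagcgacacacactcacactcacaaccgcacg
The Egln3 window has 1 capital stretch, a match of ACGTG at position -229 from the start. The Mxi1 window shown has none. It is 1 of 3 RefSeq windows of Mxi1, and the others are not described here.

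Over the 34 genes with a RefSeq window, all but Slc2a3, Bhlhe40, Bnip3l and Ndrg1, the letters ACGTG were found on either strand in 23 (67.6%). They were found in 25.3% of the 11914 windows of genes in the table and in 19.6% of all 32851 windows. With GCGTG allowed as well, the shares were 82.4%, 62.2% and 43.8%. The share of the list takes only the window nearest the listed transcript of each gene. The other shares count every window of a gene, so the units differ. ACGTG was in 17 of 22 windows of genes higher at 36 h than at 0 h, 2 of 4 lower and 4 of 8 that passed neither way. The genes were chosen by name for known roles, so their share is a description of the list, and a match is not a binding site. Windows that begin far from the listed transcript, as for Hif1a, Eno2 and Gapdh, describe another start of the gene.

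The 36 h peak was common to most of the genes but differed in strength from its neighbours. The peak had been named, and the genes listed, with earlier results of these data known. The counts here and those of the step from 24 h to 36 h therefore describe the peak and are not an independent test of it. The mean was highest at 36 h for 28 of 38 genes (background 13.3%), 18 of 23 glucose and lactate genes and 10 of 15 others. All 3 libraries at 36 h lay above all 11 other mDMC libraries for 20 genes (background 1.63%), 15 of 23 and 5 of 15. When 36 h was compared with the mean of 24 h and 48 h, 3 genes were higher at an adjusted p below 0.05: Ldha by 1.52 (SE 0.22, adjusted p = 0.048), Bnip3l by 1.05 (SE 0.15, adjusted p = 0.048) and Eno1 by 0.79 (SE 0.11, adjusted p = 0.048). In all 6 of 12079 transcripts were called in that direction (background 0.0497%) and 0 in the other. At an unadjusted p below 0.05, 30 of the 38 were higher and 0 lower (background 6.51% and 6.39%). The epithelial markers had a median of -1.86 there (0 of 5 called, 2 lower by unadjusted p below 0.05), whose part was not tested. The adjusted count was 0 when any 0 h or 12 h replicate, 24 h replicate 2 or 3, 48 h replicate 3 or either 36 h unit was left out, 17 without 24 h replicate 1 (background 0.530%) and 12 without 48 h replicate 1 (background 0.497%). With 36 h replicates 1 and 2 separate it was 12 (background 0.530%), and with the replicate block added 20 (background 1.24%).

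Spread between replicates at 24 h and 48 h was shared by the genes. Replicate 1 was the highest of the 3 libraries at 24 h for 34 of 38 genes (background 34.0%), at 48 h for 31 (background 39.8%) and at both times for 28 (background 17.9%). The log2 ratio of replicate 1 to the mean of the other two had a median of 0.52 at 24 h and 0.43 at 48 h over the 38 genes, and of -0.02 and 0.00 over all transcripts. It exceeded 1 for 9 genes at 24 h (background 2.02%) and 8 at 48 h (background 1.37%). Slc16a3 (2.50 and 2.44), Pdk1 (2.17 and 1.62), Bnip3 (2.05 and 1.47), Ankrd37 (1.67 and 1.91) and Pfkfb3 (1.38 and 1.08) exceeded it at both times. Egln2, Slc16a1 and Hif1a lay between -0.18 and 0.07 at both times. The labels give no batch, date, density or oxygen level by which replicate 1 could be set apart, and what moved with it was not tested. With 24 h replicate 1 and 48 h replicate 1 both left out, a choice made after seeing that the genes stood high in them, 24 genes were higher at 36 h than the mean of 24 h and 48 h (background 3.10%) and 15 were lower at 48 h than at 36 h (background 0.820%).

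**Figure D4:**
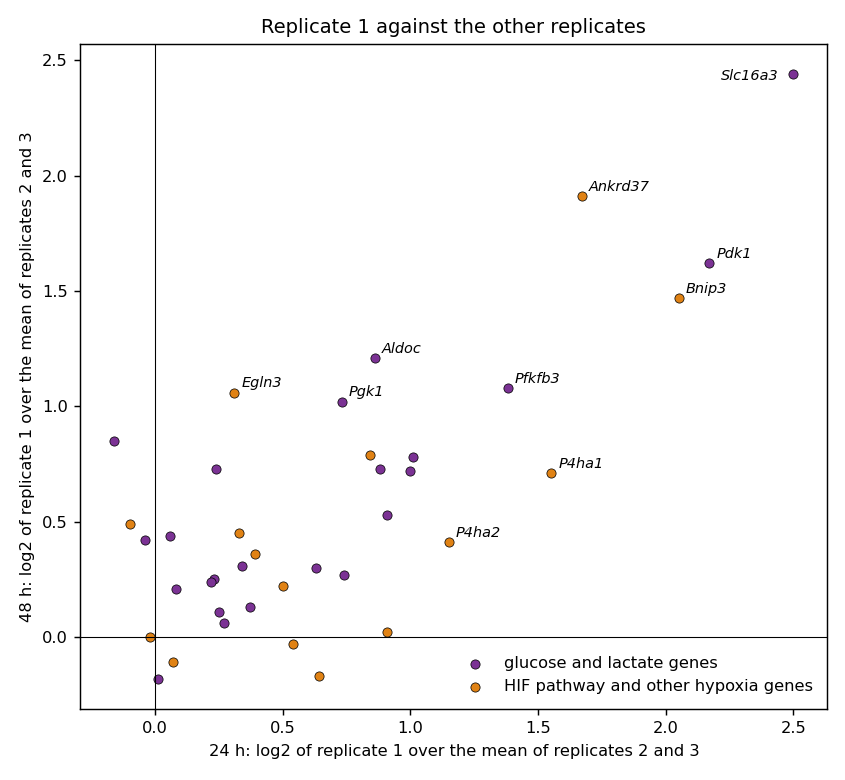
Log2 ratio of replicate 1 to the mean of replicates 2 and 3 at 24 h (horizontal axis) and 48 h (vertical axis) for the 38 genes, 1 point per gene, in purple for glucose and lactate genes and in orange for HIF pathway and hypoxia genes. Most points lie above 0 on both axes, up to 2.50 and 2.44 for Slc16a3, while a gene with replicates alike would lie at 0 on both axes.

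The 13 genes lower at 12 h than at 0 h were a share near that of all transcripts, given above. Of them, 12 were past 2-fold (background 12.0%), among them Pdk1, Ldhb, Aldoc, Ankrd37, Vegfa, Ddit4 and Tpi1. The 8 higher genes were Pfkp, Pfkfb3, Aldoa, Eno1, Gpi1, Egln3, P4ha2 and Ero1a. At 36 h against 12 h, a comparison added after seeing the values, 29 of 38 genes were higher and 0 lower (background 15.1% and 14.6%). In the same comparison 8 of 13 dental mesenchyme markers (median -0.53), 4 of 9 endothelial (-1.21), 3 of 5 epithelial (-2.98), 1 of 9 red cell (-1.14) and 1 of 5 macrophage markers (-0.21) were lower and 0 higher, and their part was not tested. The largest of these differences were those of Ankrd37 (log2 difference 4.79, SE 0.73, adjusted p = 0.00077), Slc16a3 (log2 difference 4.34, SE 0.89, adjusted p = 0.0044), Pdk1 (log2 difference 3.94, SE 0.68, adjusted p = 0.0018) and Bnip3 (log2 difference 3.92, SE 0.67, adjusted p = 0.0016). The first place of Ankrd37 rests on its 12 h scores of 6 and 4, since with a pseudocount of 10 its log2 difference was 3.52, below those of Slc16a3 (4.29), Bnip3 (3.89) and Pdk1 (3.85).

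The tissue had 1 library, so it was set beside the 0 h libraries without a test. For 16 of 38 genes the tissue was above all 0 h libraries (background 29.7%) and for 6 below all of them (background 32.0%). Ndrg1 (1244 in tissue, 388, 429 and 591 at 0 h) and Ddit4 (1420 and 931, 595 and 650) had the widest gaps above. Ldha (19261), Pgk1 (11034), Pfkp (340), Pdk1 (1487) and Egln3 (76) lay within the 0 h range. Hif1a in tissue (9812) exceeded its score in every mDMC library.

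Other genes of carbohydrate metabolism and of HIF signalling were described from lists written from general knowledge. Over all transcripts 33.5% were higher and 31.4% lower at 36 h than at 0 h, and 5.15% and 3.96% than at 24 h. Of 16 further glycolytic genes with a row, 10 were higher and 2 lower at 36 h than at 0 h (median 0.65), and 2 were higher and 1 lower than at 24 h. The transporter gene Slc2a6 (3.54), the muscle enolase gene Eno3 (2.38) and the kinase gene Pdk4 (1.65) had the largest log2 differences from 0 h. The first place of Slc2a6 rests on low scores, 3, 2 and 7 at 0 h and 49, 39 and 62 at 36 h. Of 27 further HIF targets, 16 were higher and 2 lower than at 0 h (median 0.85) and 11 higher and 0 lower than at 24 h (median 0.69). Stc2, a secreted glycoprotein, scored 30, 10 and 11 at 0 h and 1577, 1573 and 2140 at 36 h, and the log2 difference of Lox, a collagen crosslinking enzyme, was 4.67. Both were already higher than at 0 h at 12 h, and neither passed between 24 h and 36 h.

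The lists of neighbouring pathways are set against the same shares, 33.5% higher and 31.4% lower at 36 h than at 0 h. Of 23 pyruvate dehydrogenase complex and citric acid cycle genes, 8 were higher and 2 lower at 36 h than at 0 h (median 0.07), and 1 was higher than at 24 h. The lower pair was Suclg2 (-1.33) and Idh2 (-1.28), and Idh3a (1.21) had the largest rise. In the pentose phosphate pathway 1 of 7 was higher, Rpe (1.09), and 2 lower, Tkt (-1.31) and Rpia (-1.15). Of 7 glycogen genes 2 were higher and 3 lower. Gys1, glycogen synthase, was higher at 36 h than at 0 h (0.93) and than at 24 h (0.85), and Ppp1r3c, which targets a phosphatase to glycogen, was lower than at 0 h (-1.10). The glycogen phosphorylase gene Pygl scored 555, 562 and 615 at 0 h, but 42, 27 and 38 at 24 h and 103, 102 and 138 at 36 h, below 0 h by a log2 difference of -2.27 but above 24 h by 1.73. Of 14 HIF subunits and regulators 2 were higher and 5 lower (median -0.33). Hif3a scored 331, 268 and 609 at 0 h and 18, 13 and 13 at 36 h, Epas1, the HIF-2 alpha gene, was lower by a log2 difference of -1.99, and Cited2, a competitor of HIF for its coactivator, was higher by 2.70.

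**Figure D5:**
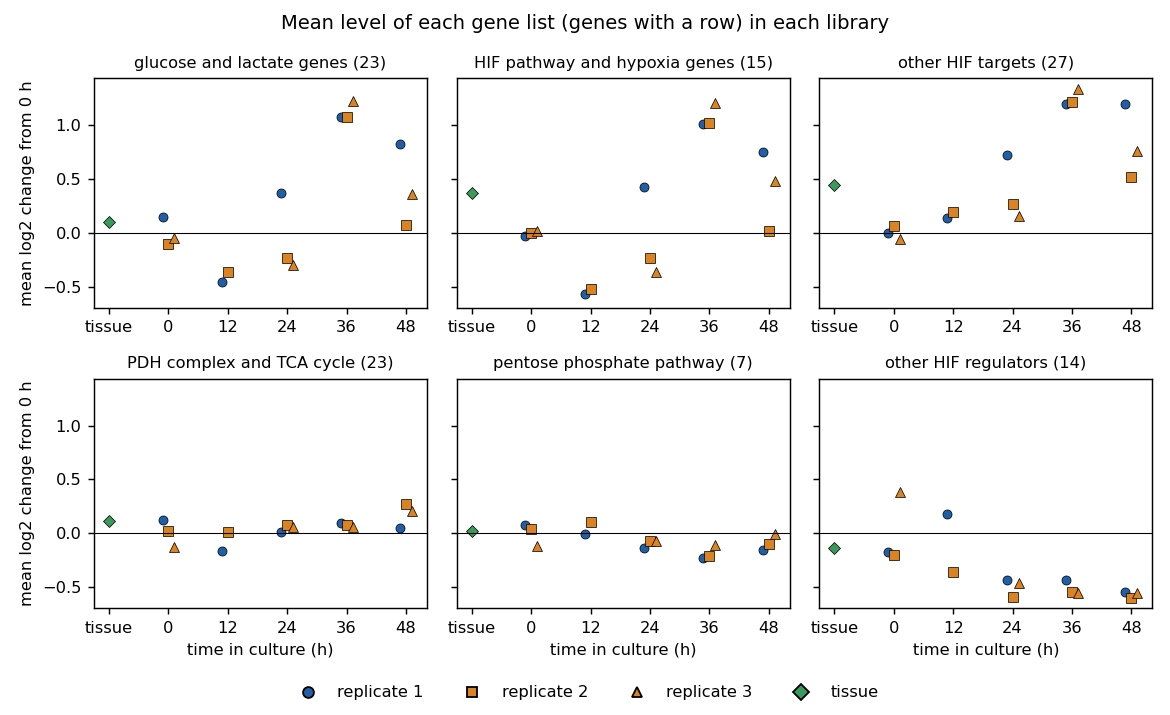
Mean log2 change from the 0 h mean over the genes of 6 lists (number with a row in each title) in the tissue and each mDMC library, 1 point per library. The glucose and lactate genes and the HIF pathway and hypoxia genes reach 1.01 to 1.23 at 36 h and fall below 0 at 12 h, the other HIF targets reach 1.2 to 1.34 at 36 h, and the citric acid cycle list stays between -0.17 and 0.27.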

How the data were processed

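RNA-seq of 15 libraries was analysed. After adaptor trimming the authors mapped reads with bowtie onto Ensembl transcripts of mm10, estimated expression with RSEM (1.1.21 in the submitters' processing notes) and pooled no replicates in the table. Expression scores were deposited in 1 table as whole numbers, with library totals of 21357605 to 21365980, brought to one distribution by a step not named in the sources used here. Ties, rank-set values and unknown depth limit precision, so no counting interval was given.

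Transcript identifiers were matched to GENCODE genes (11973 of 12089). The 14 mDMC libraries, with 36 h replicates 1 and 2 averaged against the planned design, were fitted as log2(score + 1) by limma 3.58.1 under R 4.3.3, using a mean for each time, a trended eBayes prior and two-sided tests. Transcripts with at least 1 ppm of the total in at least 2 libraries were tested and Benjamini-Hochberg adjusted. Tables and plots used Python 3.11.15. The fit was checked on simulated data. The paper's threshold, unadjusted p below 0.05 with a fold above 2, was an alternative, beside another pseudocount, 2 other filters, trimmed-mean scaling, a fit of only the compared times, a replicate block and each replicate left out.

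Nothing in the labels ties libraries by replicate number. Correlations of deviations from the time means exceeded 0.1 in all 3 same-numbered pairs for 24 h with 36 h (0.13 to 0.16; other numbers -0.12 to -0.04) and 24 h with 48 h (0.20 to 0.32; other numbers -0.33 to 0.04), but in 0 of 3 for 36 h with 48 h and in not all pairs for any other times. The block was therefore kept as an alternative, printed beside both comparisons of 36 h with 24 h.

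Members and lists were chosen with earlier results of these data known. Named were every member with a row and, from each other list, up to 3 genes with the largest log2 difference at 36 h among those with an adjusted p below 0.05. A result for 1 of these genes is not reported here. Levels were not compared between genes. Promoter windows were those of RefSeq (GRCm38.p6), and for each member the window nearest the start of the listed transcript was used.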

Additional observations from a re-analysis of the deposited data

Results flagged for a closer look

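Of the 38 genes, 3 were lower than 0 h at 12 h and higher than 0 h at 36 h, with the difference between the 2 times itself past the threshold in limma (background 0.894% of 12079 transcripts). Ankrd37 went from -2.43 to 2.35 on the log2 scale, a difference of 4.79 (adjusted p = 0.00077), Ddit4 from -1.80 to 1.48, a difference of 3.28 (adjusted p = 0.00011), and Pfkl from -1.14 to 1.5, a difference of 2.63 (adjusted p = 0.00031). For each gene both 12 h libraries lay below all 0 h libraries and all 36 h libraries above them. The 12 h change of Pfkl missed the threshold without 12 h replicate 1 (adjusted p = 0.054) and that of Ankrd37 without 12 h replicate 2 (adjusted p = 0.057). The comparison of 36 h with 12 h was added after seeing the data, and both changes share the 0 h libraries. With a pseudocount of 10 the difference of Ankrd37, whose 12 h scores were 6 and 4, was 3.52 (adjusted p = 0.0014). With 2 or 3 libraries at each time, single libraries were not tested as outliers.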

How the results depend on the processing

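No difference of any of the 38 genes changed direction with a call under any alternative. The counts at 36 h against 0 h, 24 higher and 4 lower, stayed within 1.5 times under all alternatives, and ranged from 22 to 26 higher when each replicate was left out. Under leave-one-out the number higher ranged from 4 to 9 at 12 h (background 24.2% to 29.2%), 7 to 14 at 24 h (30.6% to 34.4%) and 16 to 21 at 48 h (33.7% to 36.7%) against 0 h. It ranged from 0 to 3 for 24 h against 12 h (0.662% to 4.25%), from 5 to 26 for 36 h against 24 h (0.662% to 6.58%) and from 0 to 17 for 36 h against the mean of 24 h and 48 h (0% to 0.530%), and the number lower at 48 h than at 36 h from 0 to 3 (0% to 0.0993%).

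With a fit of only the compared times, 0 genes were higher at 24 h than at 12 h (background 0.993%) and 0 at 36 h than the mean of its neighbours (0%), where fewer samples set the spread. With the paper's threshold (unadjusted p below 0.05 and over 2-fold), 3, 4 and 12 genes were higher than at 0 h at 12, 24 and 48 h (background 12.2%, 13.9% and 16.2%) and 5 lower at 48 h (15.9%). By it 3 were higher at 24 h than at 12 h (1.76%), 9 lower at 48 h than at 36 h (0.919%) and 14 higher at 36 h than the mean of its neighbours (0.753%).

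Counting 36 h replicates 1 and 2 separately, as first planned, gave 3 genes higher from 12 h to 24 h (background 4.59%), 1 lower from 24 h to 36 h (9.64%) and 12 higher in the comparison with the neighbours (0.530%). Leaving out 24 h replicate 1 and 48 h replicate 1 gave 3, 15 and 24 for 24 h against 12 h (higher), 48 h against 36 h (lower) and 36 h against its neighbours (higher), with backgrounds of 4.07%, 0.820% and 3.10%. Averaging the 36 h pair and leaving out both replicates 1 were choices made after seeing the data.

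With the replicate block and 36 h replicates 1 and 2 separate, 5 genes were higher from 12 h to 24 h (background 4.88%), 1 lower from 24 h to 36 h (9.93%) and 20 higher at 36 h than the mean of its neighbours (1.24%). The cause of these shifts was not tested.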
